A study of Mus musculus with 9 samples.

Results

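The numbered Zfp genes of the mouse, named for zinc finger protein, were followed through 3 cell populations sorted from spleen. Members were the rows of the count table whose symbol is Zfp followed by a number, without Zfp36 (an RNA-binding protein of another finger type), and with at least 300 reads summed over the 9 libraries. This rule took 265 of 372 such rows, in a table of 50508 rows. The members were thus chosen by their summed count, so their overall level is a description. The 265 totals ran from 301 to 39856 reads with a median of 1820. Zfp827 (301 reads) and Zfp939 (311 reads) lay just inside the threshold, and Zfp286 (298 reads) and Zfp580 (286 reads) just outside it. Of the 107 rows under the threshold, 31 had no read. All 265 members passed the filter on low counts.

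Libraries were made from T cells, conventional dendritic cells (DC) and the population that the labels call TDC, with 3 libraries of each. Every group came from untreated 8-week-old mice homozygous for Zbtb46-GFP, a reporter of Zbtb46, which is itself a zinc finger gene of the dendritic lineage. Replicate 1 of each group pooled 5 spleens and replicates 2 and 3 pooled 6, and the library names of a replicate number share a prefix (AF46, AF47 or AF48) that the labels do not explain. Which animals went into each pool is not in the labels, so p-values reflect only how far the pools differ, and no source used here states the sort gates. Counts came from the 3' ends of transcripts.

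Zinc finger proteins of the C2H2 class read DNA through arrays of short fingers, each held together by a zinc ion between cysteine and histidine residues. A large branch also carries a KRAB domain, which recruits the corepressor TRIM28 (KAP1) and through it histone methylation by SETDB1, and which is known for silencing retroelements. Members without KRAB include activators at promoters, partners of chromatin complexes and proteins that act on RNA or ribosomes. Many KRAB members lie side by side in chromosomal clusters.

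Library totals ran from 10986544 to 25676640 reads. Values below are CPM (read counts scaled to a fixed library size) scaled with TMM factors, and triplets are in the order of replicates 1, 2 and 3. Members took 0.598% to 0.746% of the reads in T cells, 0.410% to 0.643% in DC and 0.344% to 0.521% in TDC. After TMM scaling the median member measured 8.94 to 11.4 CPM in T cells, 7.45 to 13.3 in DC and 9.15 to 13.4 in TDC. DC replicate 3 stood apart, with no read for 39 members against 0 to 21 in the other libraries. Over the whole table it also had the fewest genes with a read, 14836 against 15673 to 19815. Markers were checked against the labels. The 7 T cell markers summed to 5376 to 8197 CPM in T cells, 20.8 to 27.1 in DC (Cd3e and Cd3g had no read) and 54.7 to 179 in TDC. The 6 dendritic markers summed to 1786 to 2774 CPM in DC, 140 to 390 in TDC and 4.05 to 6.59 in T cells, where Cd209a and Kmo had no read. The 8 macrophage markers summed to 45113 to 72106 CPM in TDC, 132 to 272 in DC and 0.0515 to 1.38 in T cells, where Adgre1, C1qc and Cd5l had no read. The 6 erythroid markers summed to 597 to 2070 CPM in TDC, 1.49 to 22.4 in DC and 0.494 to 1.18 in T cells. The 5 B cell markers summed to 207 to 279 CPM in DC, 68.3 to 129 in TDC and 14.1 to 33.6 in T cells. These lists move with the groups compared below, and their part in the differences of the Zfp genes was not tested. In sorted pools, fewer cells of a type and less RNA per cell cannot be told apart.

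Most members showed no called difference between the populations. With edgeR's quasi-likelihood test and Benjamini-Hochberg adjustment over 14708 genes, 28 of 265 members (10.6%) were called between DC and T cells, 20 higher and 8 lower in DC. The same test called 23.8% of all genes in that comparison, 15.4% higher and 8.41% lower. Between TDC and T cells 38 members (14.3%) were called, 26 higher and 12 lower in TDC, against 33% of all genes, 21.8% higher and 11.2% lower. Between TDC and DC 10 members (3.77%) were called, 5 in each direction, against 14.1% of all genes, 9.55% higher and 4.6% lower. Among tested genes that also reached 300 reads, 25.2% were called in DC against T cells (16.8% higher, 8.4% lower), 35.2% in TDC against T cells (23.4% and 11.9%) and 15.9% in TDC against DC (10.6% and 5.34%). The members' median log2 fold changes were -0.06, -0.03 and 0.01, beside 0.08, 0.14 and 0.01 over all genes. A log2 change beyond 1 in size was fitted for 34.3% of members in DC against T cells and for 46.7% of all genes, and for 35.5% and 54.1% in TDC against T cells. The median spread of a member within a group, as a coefficient of variation, was 33% in T cells, 54.8% in DC and 34.7% in TDC. With the replicate number as a block the counts higher and lower were 16 and 4 in DC against T cells, 23 and 4 in TDC against T cells, and 4 and 2 in TDC against DC. Over all genes the block called 12.6% and 6.67%, 18.8% and 8.08%, and 7.17% and 2.93% in the same order. The 3 comparisons share libraries, so their counts are not independent of each other. Counts moved when single libraries were left out: in DC against T cells 13 were higher without T replicate 2, and 4 or 5 were lower without any 1 of the T cell libraries or DC replicate 1. In TDC against T cells 2 to 7 were lower without any 1 of the T cell libraries or TDC replicate 1 or 2, and 20 without DC replicate 3. In TDC against DC 2 or 3 were higher without TDC replicate 2 or 3 and 9 without DC replicate 3, and 1 to 3 were lower without any 1 of the libraries except T replicate 1 and TDC replicate 3. Over all genes these runs called 11.1% higher and 5.61% to 6.09% lower in DC against T cells. In TDC against T cells they called 6% to 9.51% lower, and 12.4% without DC replicate 3. In TDC against DC they called 5.74% to 6.5% and 7.5% higher, and 1.88% to 3.9% lower.

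The share of calls that were higher depended on the scaling. Of the members called in TDC against T cells 68.4% were higher with TMM, 57.1% with upper-quartile factors and 33.3% with library size as the only scaling. Over all genes 3204 of 4858 calls in that comparison were higher with TMM, and the shares were 57.5% with upper-quartile factors and 42.9% with library size. In TDC against DC the members' shares were 50%, 44.4% and 36.4%. Over all genes 1404 of 2081 calls there were higher with TMM, and the other 2 shares were 61.4% and 53.1%. Library size alone shifted the all-gene median (log2) by -0.30, -0.60 and -0.30 for DC over T, TDC over T and TDC over DC, and upper-quartile factors moved it by -0.11, -0.25 and -0.14. Changes of single genes are read relative to these shifts.

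**Figure D1:**
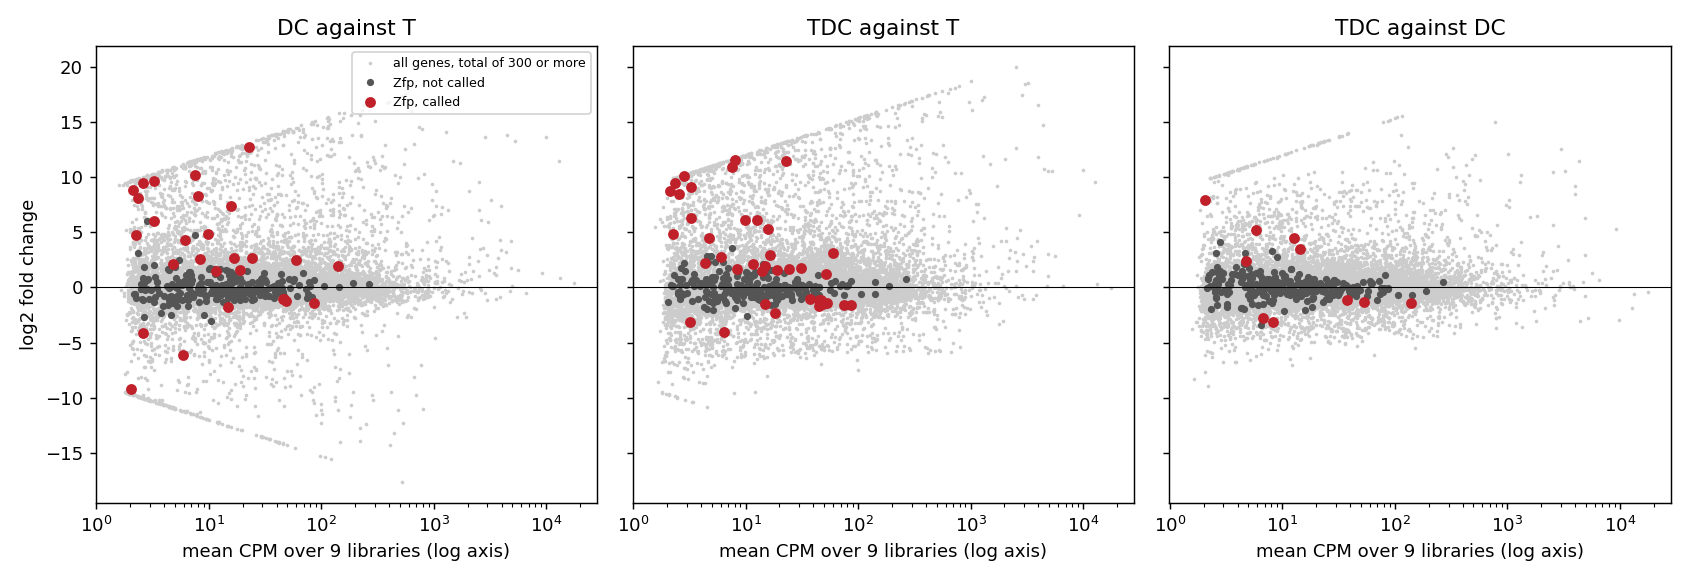
Log2 fold change (vertical axis) against mean CPM over the 9 libraries (log axis) for genes with at least 300 reads, in each comparison. Grey points are all genes, dark points Zfp genes that were not called and red points the 28, 38 and 10 that were. Most Zfp genes lie near 0, and in the comparisons with T cells the called ones at the top left are genes with no read or almost none in T cells.

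Some members had reads in only part of the populations. In T cells 8 members had no read in any library: Zfp366, Zfp768, Zfp111, Zfp229, Zfp704, Zfp105, Zfp532 and Zfp939. In DC Zfp827 had none, and in TDC each member had at least 1 read. A member with no read in a group reached the total of 300 only through the other groups, so such members had to differ and are described here without a p-value. They make up 7 of the 20 higher calls in DC and 8 of the 26 in TDC, which leaves 13 and 18 with reads in both groups. Zfp827 is 1 of the 8 lower calls in DC against T cells and 1 of the 5 higher calls in TDC against DC. Zfp703 and Zfp90 (through TDC), Zfp296 (through DC) and Zfp507 (through T cells) had reads in each group. They reached 300 only through the group in parentheses, so their comparisons with that group are also given without a p-value. The same holds for Zfp105 and Zfp532, which reached 300 only through TDC. A count of 0 allows up to 3 reads over a group, which is 0.0557 CPM in T cells, 0.0524 in DC and 0.0706 in TDC. Fold changes against a group at 0 are lower bounds from that floor, and they cover counting error only.

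The start regions of 3 of these genes are shown because the genes mark the contrast between populations most simply: Zfp768 and Zfp105 had no read in T cells and Zfp827 had none in DC. Each is the 300-base window from 250 bases before to 50 after a RefSeq gene start in GRCm38.p6, at chr7:127345265-127345564 on the minus strand, chr9:122922828-122923127 on the plus strand and chr8:79028187-79028486 on the plus strand. Capitals mark CpG dinucleotides, of which the windows hold 35, 19 and 23. The median is 15 over 265 promoters of 218 members in the table and 7 over 32851 promoters of all genes.
Zfp768: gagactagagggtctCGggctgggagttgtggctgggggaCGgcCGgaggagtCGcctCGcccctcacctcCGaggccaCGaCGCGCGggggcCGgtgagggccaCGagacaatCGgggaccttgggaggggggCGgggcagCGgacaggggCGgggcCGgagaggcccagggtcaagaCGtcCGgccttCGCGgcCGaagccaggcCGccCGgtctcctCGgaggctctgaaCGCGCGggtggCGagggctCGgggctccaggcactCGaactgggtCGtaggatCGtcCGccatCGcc
Zfp105: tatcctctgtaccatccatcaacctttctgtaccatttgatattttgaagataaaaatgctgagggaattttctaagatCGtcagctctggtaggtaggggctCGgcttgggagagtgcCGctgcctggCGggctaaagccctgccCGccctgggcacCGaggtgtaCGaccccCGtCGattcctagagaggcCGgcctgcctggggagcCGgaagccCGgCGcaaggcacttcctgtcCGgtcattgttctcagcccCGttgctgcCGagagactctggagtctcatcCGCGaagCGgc
Zfp827: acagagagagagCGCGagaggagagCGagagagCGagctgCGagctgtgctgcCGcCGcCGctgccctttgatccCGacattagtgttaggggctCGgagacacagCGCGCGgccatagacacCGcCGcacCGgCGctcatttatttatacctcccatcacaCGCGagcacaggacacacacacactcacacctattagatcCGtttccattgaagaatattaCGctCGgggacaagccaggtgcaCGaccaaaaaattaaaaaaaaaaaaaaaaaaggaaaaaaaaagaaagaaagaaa
Short motifs were searched on both strands of these windows. GAGGAAGT, a PU.1-type site, was in 3.02% of members' promoters and 3.2% of all promoters, and TGACTCA, an AP-1-type site, in 3.4% and 5.2%. CCGGAAGT, an ETS-type site whose last letters are shared with the PU.1-type site, was in 10.6% and 3.89%, and GCCAAT, an NF-Y-type site, in 23% and 14.7%. None of these letters was in the 7 promoters listed for 5 of the 8 genes with no read in T cells. At the shares of all promoters above, so few windows cannot show a lack of any motif. The windows of Zfp939 among them cover nearly the same stretch. A match describes letters in a window and not binding.

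Zfp366 encodes DC-SCRIPT, a transcriptional regulator known from dendritic cells. It measured 36.5, 14.3 and 94.9 CPM in DC, 7.27, 33.7 and 18.4 in TDC and 0 in the 3 T cell libraries. No library of DC or TDC came near the T cells, while DC and TDC overlapped each other. It was at least 872-fold higher in DC than in T cells and at least 355-fold higher in TDC. The difference between TDC and DC was not called (log2 difference of -1.29, SE 0.77, adjusted p = 0.32, edgeR).

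Zfp768 measured 6.32, 6.06 and 13.4 CPM in DC and 17.1, 15.3 and 9.91 in TDC, with none in T cells. It was at least 154-fold higher in DC and at least 253-fold higher in TDC, and the ranges of DC and TDC overlapped. Its window above is the richest in CpG of the 3 shown. Zfp111 and Zfp229, which both match the KRAB-like pattern described below, had the same layout at lower levels. Zfp111 measured 2.14, 5.85 and 7.51 CPM in DC and 1.26, 3.46 and 3.06 in TDC, at least 92.8-fold and at least 46.5-fold above T cells. Zfp229 measured 3.87, 2.3 and 11.4 CPM in DC and 1.44, 2.4 and 7.82 in TDC, at least 105-fold and 69.8-fold above T cells. For each, DC and TDC libraries overlapped. Zfp704 measured 2.14, 0.627 and 3.1 CPM in DC and 4.85, 3.74 and 6.78 in TDC, and a gene on the opposite strand, C030034L19Rik, overlaps its last kilobase. No source used here states whether strand was used in counting, so reads of the pair cannot be told apart.

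Zfp105, known from spermatogenesis, measured 8.53, 9.37 and 6.04 CPM in TDC, 0.23, 1.18 and 0 in DC and 0 in T cells. All TDC libraries lay above all DC libraries, yet the difference between TDC and DC was not called (log2 difference of 4.09, SE 1.37, edgeR), and the TDC level was at least 143-fold above T cells. Zfp532, a partner of the ZMYND8 chromatin complex, had the same order, with 28.8, 19.4 and 17.7 CPM in TDC, 2.72, 4.04 and 0 in DC and 0 in T cells. Its TDC level was at least 395-fold above T cells, and edgeR did not call the difference from DC.

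Other members were present in T cells and higher in both other populations. Zfp710 measured 13.9, 8.74 and 12.3 CPM in the T cell pools, 77.2, 41.2 and 81.3 in DC and 80.6, 115 and 107 in TDC. Its DC and TDC libraries all lay above the T cells (log2 difference of 2.52, SE 0.37, adjusted p = 0.000675 for DC and log2 difference of 3.12, SE 0.38, adjusted p = 0.000166 for TDC, edgeR). Zfp839 measured 2.6, 2.27 and 5 CPM in the T cell pools, 31.7, 14.9 and 15.4 in DC and 18.8, 31.1 and 27.6 in TDC (log2 difference of 2.65, SE 0.52, adjusted p = 0.00384 and log2 difference of 2.97, SE 0.52, adjusted p = 0.00169, edgeR), again without overlap with T cells. Zfp516, known as a partner of PRDM16 in brown fat, measured 0.774, 0 and 0 CPM in the T cell pools, 30.9, 26.9 and 57.5 in DC and 5.56, 10.4 and 11 in TDC. Its DC libraries lay above its TDC libraries, but TDC against DC was not called (log2 difference of -2.09, SE 0.94, adjusted p = 0.176, edgeR). Zfp608, known as a repressor of the recombinase genes in thymocytes, measured 0.211, 0.642 and 0 CPM in the T cell pools, 9.57, 9.41 and 6.2 in DC and 28.6, 16.1 and 18 in TDC. Its TDC libraries lay above its DC libraries, and TDC against DC was not called either (log2 difference of 1.32, SE 0.80, adjusted p = 0.321, edgeR). Zfp629 measured 6.32, 2.79 and 3.94 CPM in DC and 3.32, 8.92 and 3.88 in TDC against 0.211, 0 and 0 in T cells, and was called in both. Zfp367 measured 9, 5.43 and 6.28 CPM in the T cell pools, 46.5, 35.3 and 51.3 in DC and 20.8, 24.6 and 20.3 in TDC. It was called in both comparisons with T cells, and its call in TDC ended when library size was the only scaling (edgeR adjusted p = 0.0616).

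**Figure D2:**
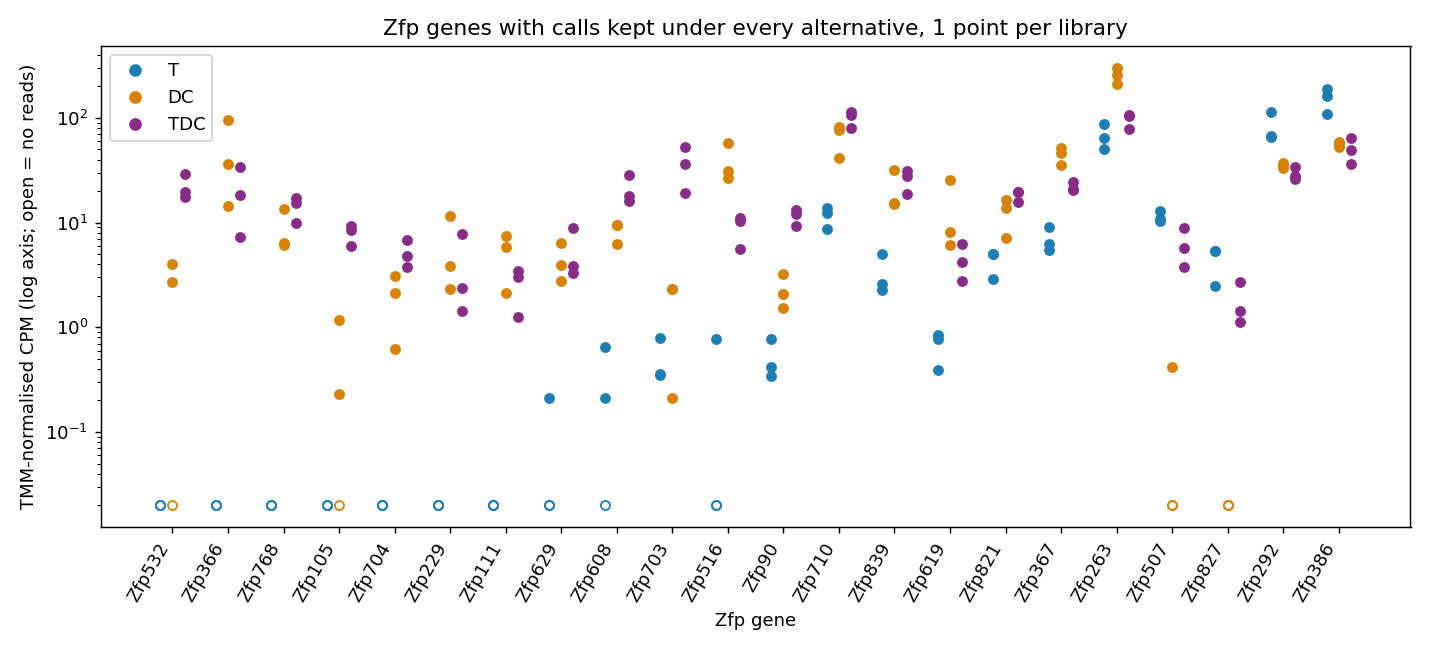
CPM (log axis) of 22 Zfp genes whose call in at least 1 comparison was kept under every alternative run, with 1 point per library. Open circles at the bottom are libraries with no read. Genes run from those higher in TDC than in T cells on the left to those lower on the right, and T cell points are at or near the bottom for the left-hand genes.

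Between TDC and DC, 3 of the 10 calls were kept under every alternative run: Zfp703, Zfp827 and Zfp263. Zfp703, a corepressor with an atypical finger, measured 35.9, 52.5 and 19.2 CPM in TDC, 2.3, 0.209 and 2.33 in DC and 0.352, 0.79 and 0.361 in T cells. The TDC libraries stood above all the others (log2 difference of 4.46, SE 0.84 against DC and log2 difference of 6.13, SE 0.93 against T cells, edgeR). Zfp263, a promoter-binding protein with a SCAN domain, was the reverse: 301, 212 and 258 CPM in DC, 78.3, 104 and 107 in TDC and 87.1, 51 and 64.3 in T cells. The DC libraries lay above all others (log2 difference of -1.42, SE 0.31, adjusted p = 0.0117 for TDC against DC and log2 difference of 1.93, SE 0.31, adjusted p = 0.00123 for DC against T cells, edgeR), and TDC against T cells was not called (edgeR adjusted p = 0.222).

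Zfp827, known for recruiting chromatin remodellers to telomeres, measured 5.35, 2.47 and 5.31 CPM in the T cell pools, 1.44, 1.12 and 2.68 in TDC and 0 in DC. It was at least 83.5-fold lower in DC than in T cells and at least 33.3-fold higher in TDC than in DC. Zfp507 measured 13, 10.4 and 10.7 CPM in the T cell pools, 0.421, 0 and 0 in DC and 3.77, 8.92 and 5.66 in TDC. It was lower in DC than in T cells (log2 difference of -6.10, SE 1.22, edgeR) and higher in TDC than in DC (log2 difference of 5.21, SE 1.18, adjusted p = 0.015, edgeR), with no overlap in either. Its call in TDC against DC ended without TDC replicate 2 (edgeR adjusted p = 0.0523) and in a fit of those 2 groups alone, and an opposite-strand gene, Gm26790, overlaps its last kilobase. In TDC these genes stood at 39.9% (Zfp827) and 53.8% (Zfp507) of their mean T cell level, while the summed T cell markers stood at 2.16% and the 7 single markers at 1.93% to 3.48%.

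**Figure D3:**
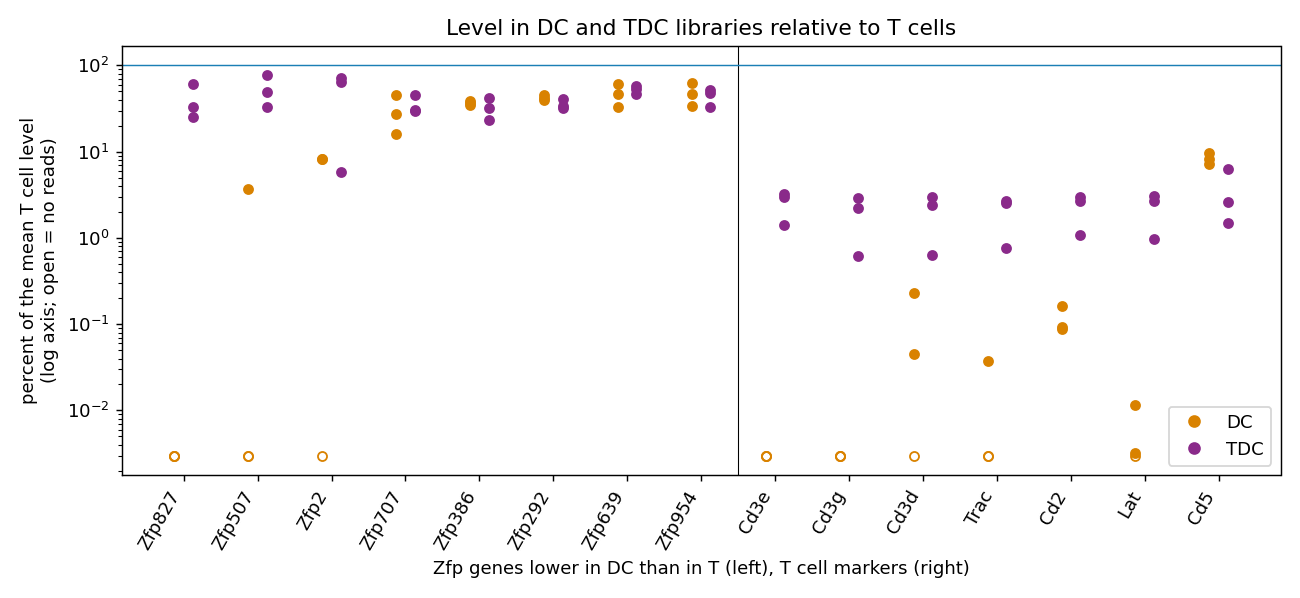
Level in each DC and TDC library as a percent of the mean T cell level (log axis, open circles for no read), for the 8 Zfp genes called lower in DC than in T cells (left of the line) and 7 T cell markers (right). In TDC, Zfp827 and Zfp507 average 39.9% and 53.8% of the T cell level, and the markers average 1.93% to 3.48%.

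Calls lower than in T cells included the following members. Zfp386, which matches the KRAB-like pattern, measured 109.5, 189 and 163 CPM in the T cell pools, 59.4, 53.1 and 56.7 in DC and 49.7, 36.1 and 64.1 in TDC. All T cell libraries lay above the others (log2 difference of -1.45, SE 0.33, adjusted p = 0.00826 for DC and log2 difference of -1.62, SE 0.33, adjusted p = 0.00358 for TDC, edgeR). Zfp292, a long protein with many fingers, measured 115, 66.8 and 65.5 CPM in the T cell pools, 35, 33.1 and 37.1 in DC and 27.9, 26.2 and 34 in TDC. It was lower in TDC (log2 difference of -1.49, SE 0.33, adjusted p = 0.00576, edgeR) and in DC (log2 difference of -1.23, SE 0.32, adjusted p = 0.0184, edgeR), and the call in DC ended without T replicate 1 or DC replicate 1 (edgeR adjusted p of 0.0626 to 0.0911). Zfp831, listed for its part in lymphocytes, measured 8.79, 14.3 and 11.6 CPM in the T cell pools, 3.79, 2.51 and 15.2 in DC and 0, 0.669 and 1.34 in TDC. Its DC libraries overlapped the T cell pools, and DC against T cells was not called. It was lower in TDC (log2 difference of -4.08, SE 1.15, adjusted p = 0.0205, edgeR), and this call ended without T replicate 2 or TDC replicate 2 (edgeR adjusted p of 0.0551 to 0.0759).

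Many of the remaining calls depended on single libraries. Of the 28 calls in DC against T cells 16 were kept under every alternative run, of the 38 in TDC against T cells 17, and of the 10 in TDC against DC 3. Calls higher in DC that were not kept were Zfp296, Zfp316, Zfp532, Zfp810, Zfp821, Zfp90 and Zfp939, and those lower were Zfp2, Zfp292, Zfp639, Zfp707 and Zfp954. Between TDC and DC, the calls of Zfp90, Zfp658 and Zfp507 (higher) and of Zfp296, Zfp808, Zfp511 and Zfp422 (lower) were not kept. Zfp90, a KRAB repressor, measured 12.2, 13.2 and 9.24 CPM in TDC, 2.07, 1.53 and 3.22 in DC and 0.422, 0.346 and 0.773 in T cells, with no overlap between any groups. Its call in TDC against T cells was kept throughout (log2 difference of 4.47, SE 0.75, edgeR), and that in TDC against DC ended without 7 of the 9 libraries in turn. Zfp90 also has an opposite-strand gene, Gm26786, over its last kilobase. Zfp658 measured 18, 36.7 and 42.6 CPM in TDC and 2.26, 1.05 and 5.43 in DC (log2 difference of 3.48, SE 0.86, adjusted p = 0.023, edgeR). That call ended when DC replicate 1, DC replicate 2, TDC replicate 2 or TDC replicate 3 was left out. Zfp296, known from pluripotent cells, measured 17.3, 14.9 and 26.5 CPM in DC, 0.987, 0.725 and 4.77 in TDC and 3.17, 3.8 and 2.88 in T cells, and its call in TDC against DC ended without TDC replicate 1 or 2.

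Members were also read by role, in lists drawn up with earlier results of these data known. Of 11 members with roles in RNA, ribosomes or ubiquitin, 0 were called in any comparison by edgeR, DESeq2 or limma-voom, and 0 had an unadjusted edgeR p under 0.05. Of all genes, edgeR called 23.8% in DC against T cells, 33% in TDC against T cells and 14.1% in TDC against DC. They include Zfp598, the ubiquitin ligase that senses collided ribosomes, Zfp622 of ribosome maturation, Zfp207 of the spindle checkpoint and Zfp91, a ubiquitin ligase. Zfp207 measured 169 ± 46.9 CPM (SD, n = 3) in the T cell pools, 221 ± 17.2 CPM in DC and 179 ± 33.2 CPM in TDC. Zfp622 measured 159.6 ± 7.15 CPM, 164 ± 45.5 CPM and 104 ± 28.7 CPM in the same order. Of 8 promoter-binding activators and regulators tested, Zfp263 was called in DC against T cells and in TDC against DC, and Zfp384 in TDC against T cells (log2 difference of 1.18, SE 0.41, adjusted p = 0.0497, edgeR). That is 1 of 8 (12.5%) in each comparison, beside those shares of all genes, and so short a list bears no reading of its share. The call of Zfp384 ended without any 1 of the T cell libraries, DC replicate 1, or TDC replicate 2 or 3 (edgeR adjusted p of 0.0506 to 0.211), and the opposite-strand gene 4930557K07Rik overlaps its last kilobase. That call also ended with each of the 3 other scalings, with no filter on low counts and with the replicate block (edgeR adjusted p up to 0.367). Zfp143, which activates many small nuclear RNA and housekeeping promoters, measured 49.7 ± 19.8 CPM (SD, n = 3) in the T cell pools, 38 ± 11.4 CPM in DC and 38.5 ± 4.25 CPM in TDC, and was not called. Zfp148 and Zfp410, an activator of Chd4, were not called either, with log2 fold changes of 0.11 and -0.06 in DC and 0.09 and 0.02 in TDC against T cells.

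Of 8 partners of chromatin complexes tested, Zfp516 and Zfp532 were called higher in DC and in TDC than in T cells, which is 25% of the list beside 23.8% of all genes in DC and 33% in TDC. Zfp532 had no read in T cells. The others, Zfp592, Zfp687, Zfp609, Zfp644, Zfp335 and Zfp131, were not called. Among 5 silencers of imprints or retroelements tested, the member Zfp809, which recognises the primer binding site of retroviruses, measured 21.9, 26.3 and 19.6 CPM in the T cell pools, 40.8, 25.1 and 8.53 in DC and 37.4, 30.6 and 48.8 in TDC and was not called, like Zfp445, Zfp568 and Zfp932. In this list 1 of 5 genes was called in DC against T cells (20%, beside 23.8% of all genes). It was Zfp57, a keeper of imprints, under the threshold with 63 reads in all: 0 in T cells and 17, 16 and 21 reads in DC. Zfp57 passed the filter on low counts only through DC and so had to differ, and the list is too short for a reading of its share.

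Of the 7 lymphocyte genes tested, Zfp608 was called higher and Zfp292 lower in DC than in T cells. In TDC Zfp608 and Zfp318 were called higher and Zfp831 and Zfp292 lower. These are 2 and 4 of 7 genes, beside 23.8% and 33% of all genes, and so short a list bears no reading of its share. Zfp318, needed for surface IgD in B cells, measured 5.06, 3.8 and 3.86 CPM in the T cell pools and 13.6, 9.98 and 15.9 in TDC, and its call ended without any 1 of the T cell or TDC libraries (edgeR adjusted p of 0.0599 to 0.123). The call also ended with library size alone, upper-quartile factors, no filter on low counts or the replicate block (edgeR adjusted p up to 0.163). Zfp335, needed for T cell maturation, measured 11.5, 4.15 and 10.8 CPM in the T cell pools, 21.7, 4.25 and 41.1 in DC and 3.68, 27.3 and 16.6 in TDC, and the groups overlapped. Of 4 dendritic and myeloid genes tested, 2 were called higher in DC (Zfp366 and the non-member Zfp385a) and 3 in TDC, beside 15.4% and 21.8% of all genes called higher. Zfp366 had no read in T cells and so had to differ, and this list too is too short for a reading of its share. Zfp467, the other of these in TDC, was higher there than in T cells (log2 difference of 1.60, SE 0.44, adjusted p = 0.0185, edgeR), a call that ended without T replicate 1 or 2 or TDC replicate 2 or 3. Zfp521, a regulator of haematopoietic progenitors, was not called, with 4.13, 0.418 and 10.8 CPM in DC.

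The partners through which KRAB members act were measured beside them. Of 19 genes tested, 4 were called higher in DC than in T cells, and in TDC, relative to T cells, 2 were called higher and 3 lower. These are 21.1% and 26.3% of the list, where 23.8% and 33% of all genes were called. Between TDC and DC edgeR called 0 of the 19, with 3 at an unadjusted p under 0.05, 1 called by DESeq2 and 0 by limma-voom. Trim28, the common corepressor, measured 47.9 ± 12.5 CPM (SD, n = 3) in the T cell pools, 43.7 ± 17.7 CPM in DC and 45.6 ± 12.6 CPM in TDC, and was not called. Setdb1, its histone methyltransferase, measured 15.3 ± 3.73 CPM in the T cell pools and 45.6 ± 20.7 CPM in TDC (log2 difference of 1.58, SE 0.50, adjusted p = 0.0327, edgeR). Uhrf1, which guides maintenance methylation of DNA, measured 6.72 ± 4 CPM in the T cell pools and 47.6 ± 30.9 CPM in DC (log2 difference of 2.82, SE 0.71, adjusted p = 0.015, edgeR). Pphln1, of the HUSH silencing complex, was called in both (log2 difference of 1.48, SE 0.37, adjusted p = 0.0132 in DC and log2 difference of 1.06, SE 0.36, adjusted p = 0.044 in TDC, edgeR). Morc2a and Smarcad1 were the other calls in DC. The calls of Uhrf1 ended without T replicate 1 or 2, of Setdb1 without any 1 of the T cell libraries or TDC replicate 2 or 3, and of Pphln1 in DC without T replicate 2 or 3. With library size alone the calls of Setdb1, Morc2a, Smarcad1 and, in DC, Pphln1 ended too. That of Setdb1 also ended with upper-quartile factors and with the replicate block (edgeR adjusted p up to 0.176). The call of Pphln1 in TDC ended in 11 of 18 alternatives, among them those without any 1 of the T cell libraries, DC replicate 1 or TDC replicate 2 or 3, with edgeR adjusted p up to 0.399 with library size alone. Morc2a lost its call without T replicate 1 or 2 or DC replicate 3, and Smarcad1 without T replicate 2 or 3 or DC replicate 1 or 3. Cbx3 (HP1 gamma), Chd3 and Hdac1 were the lower calls in TDC, with Hdac1 at 59 ± 13 CPM against 129 ± 24.9 CPM (log2 difference of -1.13, SE 0.29, adjusted p = 0.0122, edgeR), a call that ended without T replicate 2 (edgeR adjusted p = 0.0552). The call of Cbx3 ended without T replicate 2 or 3 or TDC replicate 1 or 2, and that of Chd3 without any 1 of the T cell libraries or TDC replicate 1 or 3.

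Protein features were read from the longest open reading frame of each member's coding transcripts in GENCODE M21. Of 262 members with a coding transcript, 145 matched a KRAB-like pattern and 117 did not. The median was 10.5 fingers and the most 36. Zfp330, Zfp703 and Zfp839 had no match to the finger pattern. Among the 145 with a KRAB-like match, 9 were called in DC against T cells, 12 in TDC against T cells and 3 in TDC against DC. Among the 117 without it, 18, 25 and 7 were called. In percent these are 6.21, 8.28 and 2.07 with the match and 15.4, 21.4 and 5.98 without it, all below the 23.8, 33 and 14.1 of all genes. The first pattern tried matched 78 members, with 3, 6 and 1 called, and left 184, with 24, 31 and 9 called. The median total was 1388 reads with the match and 2530 without, so depth moves with this division, and the difference between the divisions was not tested.

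Neighbouring members were compared along the chromosomes. With gaps under 1 Mb, 156 of the 264 members found in RefSeq fell into 23 runs of at least 3. The largest, of 20 members, held Zfp229, Zfp51 and Zfp53. In it 1 member was called higher in DC than in T cells, and in TDC 1 was higher and 2 lower. Zfp229 had no read in T cells and so had to differ, while Zfp51 measured 82.2, 84.1 and 54.6 CPM in the T cell pools and 14.5, 18.9 and 36.2 in TDC. The lower calls of Zfp51 and Zfp53 ended without T replicate 1 or 2 or TDC replicate 1 or 2 (edgeR adjusted p up to 0.0887 and 0.134). Both also ended with the replicate block. In the runs of 15 and 12 members edgeR called 0 in each of the 3 comparisons, where it called 10.6%, 14.3% and 3.77% of all members. At an unadjusted p under 0.05 it gave 0 in the run of 15 and 1 in the run of 12 (TDC against DC), DESeq2 called 0, and limma-voom called 1 in the run of 15 (TDC against T cells).

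**Figure D4:**
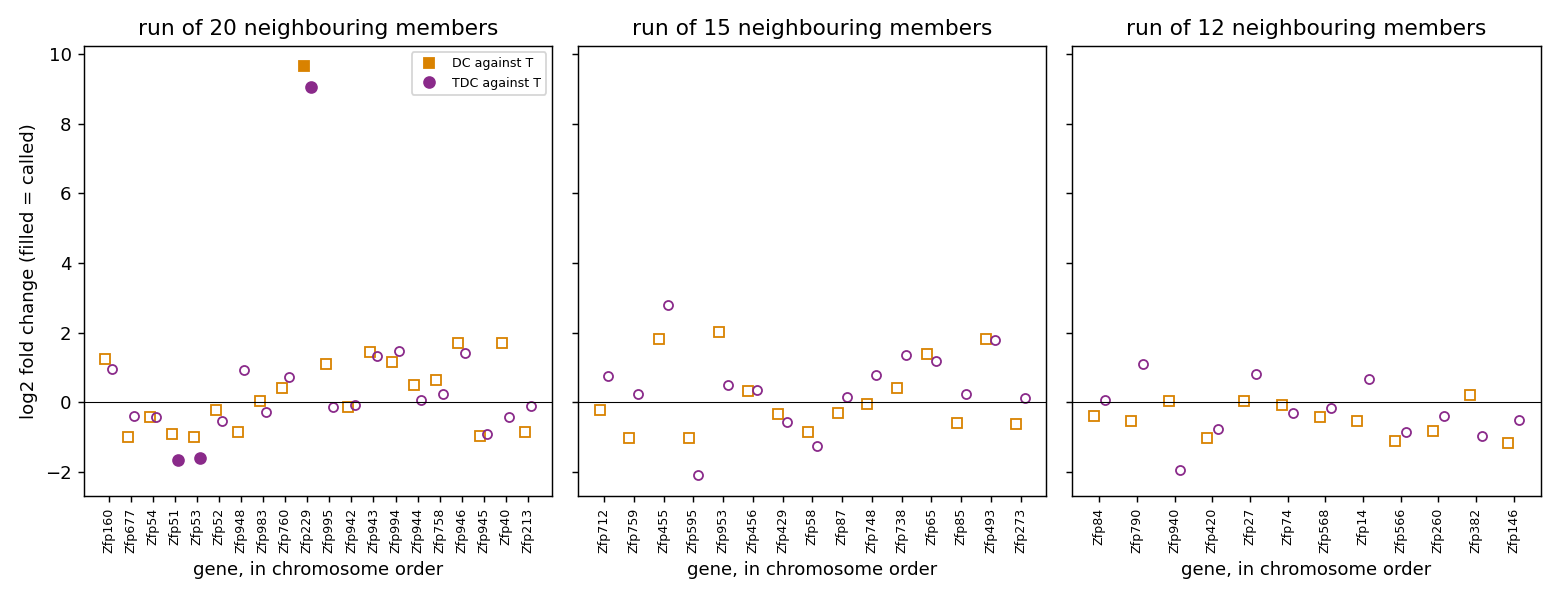
Log2 fold change of each member of the 3 largest runs of neighbouring Zfp genes, in chromosome order, for DC (squares) and TDC (circles) against T cells, with called genes filled. Only Zfp229, Zfp51 and Zfp53 are filled. In the run of 20, Zfp229 (no read in T cells) was called higher. Zfp51 and Zfp53 were called lower in TDC, in calls not kept under every alternative run.

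The members with the most reads were Zfp706, Zfp207, Zfp263, Zfp622 and Zfp871. Zfp706 measured 158, 281 and 171 CPM in the T cell pools, 242, 303 and 209 in DC and 374, 326 and 328 in TDC, with all TDC libraries above the T cells, and it was not called (edgeR adjusted p = 0.0838). Zfp871 measured 176, 80.1 and 94.9 CPM in the T cell pools, 151, 84.1 and 144 in DC and 39.8, 69.8 and 119.9 in TDC, and its groups overlapped. Short reads near transcript ends can be shared between copies: 23 members, among them Zfp706, Zfp808, Zfp991 and Zfp932, share over 10% of the 50-base words in their last 400 bases with other genes, and 222 share none. For 34 members another annotated gene on the opposite strand overlaps the last 1000 bases.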

How the data were processed

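Stranded QuantSeq libraries of 3' ends were prepared from the RNA of sorted cells, per the labels' protocols. The authors deposited raw read counts per gene in 1 table. The submitters' processing notes name STAR and featureCounts, after Trimmomatic, FastQC and MultiQC, and give hg38 as build, although the symbols are mouse. No source used here states the annotation or the strand setting.

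Groups were taken from the labels. Genes passing filterByExpr (count 10, total 15) in edgeR 4.0.16 (R 4.3.3) were scaled with TMM and fitted together, 3 groups in 1 robust quasi-likelihood model (6 residual df), and p-values were adjusted by Benjamini-Hochberg over 14708 genes with a threshold of 0.05. The common biological coefficient of variation was 0.588. Standard errors were derived from the fold change and its F statistic. Alternatives used limma 3.58.1 and DESeq2 1.42.0. No 2 libraries of a group agreed within sampling noise.

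Members, lists and tests were chosen with earlier results of these data known. Named genes are, per comparison and direction, up to 6 called members without overlap between groups and with the smallest adjusted p, members of the role lists, the 5 with most reads, those beside the threshold and up to 4 called KRAB partners per comparison. Others that the text names (among them Zfp105, Zfp111, Zfp229, Zfp516, Zfp629, Zfp704 and Zfp839, where not covered by that rule) were chosen after their values were seen. Protein features, shared transcript ends, overlaps, promoter motifs and the comparison with genes of 300 or more reads were added after the files were seen. The KRAB-like pattern was revised 2 times, each time after its matches and the division of calls by it had been seen. The first version matched 78 members, the second 140 and the last 145.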

Additional observations from a re-analysis of the deposited data

How the results depend on the processing

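Of the 265 members, the calls kept under every alternative run (3 other scalings, 2 other filters, DESeq2, limma-voom, fits of 2 groups, a replicate block and 9 fits that each leave out a library) numbered 16 of 28 in DC against T cells, 17 of 38 in TDC against T cells and 3 of 10 in TDC against DC. No call changed direction. Without a library in turn, members higher in DC than in T cells numbered 13 to 25 and lower 4 to 9, higher in TDC than in T cells 18 to 35 and lower 2 to 20, and higher in TDC than in DC 2 to 9 and lower 1 to 4. Over all genes 11.1% to 16.1% were then higher and 5.61% to 8.93% lower in DC against T cells. The shares were 16% to 22.8% and 6% to 12.4% in TDC against T cells. In TDC against DC they were 5.74% to 8.71% and 1.88% to 3.9%. Scaling by library size alone gave, for TDC against T cells, 17 members higher and 34 lower in place of 26 and 12. Over all genes it called 16.9% higher and 22.6% lower in place of 21.8% and 11.2%. DESeq2 gave 19 lower in TDC than in T cells and 13 higher in TDC than in DC, where it called 14.8% and 13.7% of all genes. With limma-voom 13 were lower in DC than in T cells, 12 higher in TDC than in DC and 8 lower. It called 11.7%, 13.2% and 7.15% of all genes in the same order. Fits of 2 groups alone gave 20 lower in TDC than in T cells and 3 lower in TDC than in DC, beside 15.3% and 4.43% of all genes. The cause was not tested. With a total of 1000 or more reads, fewer genes are counted: 12 higher and 5 lower in DC than in T cells, 16 higher in TDC than in T cells and 2 higher in TDC than in DC. The first KRAB-like pattern, revised after its result was seen, left 3 called matches in place of 9 for DC against T cells, 6 in place of 12 for TDC against T cells, and 1 in place of 3 for TDC against DC. It matches fewer members.

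Libraries of a replicate number share a name prefix and a pool size, but the labels do not say that they come from the same mice or day, so pairing by design is unknown. In the data 2 of 9 same-numbered pairs correlated above 0.1 (range -0.384 to 0.224), and 3 of the 9 libraries correlated best with their own number. With the replicate block 4 members were lower in DC than in T cells, 4 lower in TDC than in T cells and 2 lower in TDC than in DC. Of all genes 6.67%, 8.08% and 2.93% were called lower in that fit. Members with a low count are limited by depth: a read was worth 0.0383 to 0.0897 CPM.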

Other observations

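Some numbered Zfp rows under the threshold of 300 reads passed the filter on low counts. They were named after their values were seen, and each passed through the groups where it is high, so their reads are given with no test. Zfp791 had 22, 66 and 25 reads in TDC, 0 in T cells and 0, 2 and 0 in DC. Zfp691 had 46, 53 and 52 reads in TDC against 0, 0 and 3 in T cells. Zfp184 had 67, 26 and 138 reads in DC against 1, 1 and 0 in T cells. Zfp459 had 0 reads in TDC and 5, 56 and 58 in T cells.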
